A study of Mus musculus with 12 samples.

Results

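Splenic B cells of Cre-only mice were sequenced before stimulation and after 3 h of culture with antibody to IgM plus interleukin 4 (IL-4), and the 2 states were compared across all genes. The comparison used 3 resting (0 h) and 3 activated (3 h) samples, chosen by their genotype and time labels, 6 of the 12 samples in the series. All were B cells from the spleens of mice 8 weeks of age on a C57BL6 background. Genotype CD23-iCre, called Cre-only here, carried a Cre transgene under the CD23 promoter, which is active from the transitional stage of B cell maturation, and no floxed Runx1 allele. The other 6 samples carried the same transgene together with Runx1 alleles whose exon 4 is deleted by Cre (Runx1 c-k/o), and they enter the shared estimate of the spread and a comparison at the end. Cells were purified by negative selection, which removes non-B cells and cells that carry CD43. The resting samples were lysed without culture, so the effects of culture, anti-IgM and IL-4 cannot be told apart. Replicates are separate samples by their labels. The p-values rest on the spread between replicates estimated over all 12 samples, and the Runx1 c-k/o replicates, described at the end, spread more than the Cre-only ones.

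The B cell receptor (BCR) is a membrane immunoglobulin joined to the signalling chains CD79A and CD79B. When antigen, or an antibody to IgM in its place, crosslinks it, the kinases LYN, SYK and BTK start calcium, RAS-MAP kinase, PI3 kinase and NF-kB signalling. IL-4, made by helper T cells and other cells, signals through JAK kinases to STAT6. A resting B cell is small, does not divide and makes little protein, and the 2 signals together drive it to grow and enter the cell cycle over the following day. Transcription factor genes of the immediate early class are switched on within minutes and fade quickly, and genes for growth and metabolism follow.

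Totals were between 15163149 and 23641552 counts for the 6 Cre-only samples, so that 3 counts, the floor used here, were worth 0.127 to 0.198 CPM in single libraries. CPM (counts per 1000000) divides a gene's count by the library's total. Values below are normalized CPM, that is CPM after TMM scaling, which makes the bulk of genes comparable between libraries. Pearson correlations between libraries on the log scale were 0.996 to 0.997 within a time and 0.874 to 0.885 between times. The first principal component of all 12 samples held 88.5% of the variance and separated the times. Each library began from the same mass of RNA, so a change is relative to the other RNA of the sample and gives no amount per cell, and in bulk samples fewer cells of a type and less RNA per cell cannot be told apart.

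The B cell label was checked against markers. All 10 matched B cell markers were measured in every sample, with 2077 CPM of Cd79a and 1255 CPM of Ms4a1 (CD20) at rest, and 8 of the 10 fell by 3 h, their summed level going from 17180 to 17990 CPM at rest to 8022 to 8357 CPM at 3 h. The T cell markers Cd3d, Cd3e, Cd3g, Cd8b1 and Thy1 were too low to be tested. The summed level of 10 T cell markers was 38.6 to 46.6 CPM at rest and 159 to 183 CPM at 3 h, of which Il7r, described below, made up 93.0 to 109.8 CPM at 3 h. Myeloid markers, of which 7 of 9 tested fell and 0 rose, summed to 373 to 466 CPM at rest and 20.9 to 31.3 CPM at 3 h, and Csf1r alone went from 185 to 6.75 CPM. Natural killer cell markers summed to 10.3 to 14.7 CPM at rest and 1.96 to 4.79 CPM at 3 h, and megakaryocyte markers to 11.4 to 12.8 CPM and 3.11 to 3.19 CPM. Plasma cell markers summed to 133 to 202 CPM at rest and 59.2 to 99.0 CPM at 3 h, and 2 of 3 tested fell. Dendritic cell markers summed to 29.9 to 33.1 CPM at rest and 30.8 to 38.9 CPM at 3 h, and of 5 tested 1 rose and 2 fell. Myeloid, natural killer, megakaryocyte and plasma cell markers were thus present at rest and lower at 3 h, whereas the summed T cell markers were higher. The part of these other cell types in the results was not tested. Erythroid markers varied between 17.4 and 120 CPM at rest and between 5.55 and 65.2 CPM at 3 h, and 0 of 4 tested passed the test, but all 4 were called lower when the replicate number was fitted as a block, 3 without resting replicate 2 and 1 without 3-h replicate 1.

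Of 13538 genes with enough counts to be tested, 5229 (38.6%) were higher and 4930 (36.4%) lower at 3 h, with an adjusted p under 0.05 in edgeR's quasi-likelihood test. With a limit of 2-fold, 2761 genes (20.4%) were higher and 3342 (24.7%) lower. The 3 samples of one time lay wholly above or below the 3 of the other for 84.4% of genes. These shares are the background for every group of genes below, since a group chosen at will would also hold many changed genes, and the median log2 fold change over all tested genes was 0.03. A list with counts near these shares changed about as often as tested genes at large. The falls were larger than the rises. Among called genes with at least 10 CPM at the higher time, 675 fell and 578 rose at least 4-fold, while a change of 32-fold or more was a fall for 54 and a rise for 15. Without that limit on the level the fitted falls of 32-fold or more numbered 133, but 70 of these genes had at most 3 counts in every activated sample, where the fitted value depends on the prior count. Genes at least 2-fold higher held 10.7% to 10.8% of all counts at rest and 31.7% to 32.7% at 3 h, and genes at least 2-fold lower held 25.9% to 26.1% and 6.12% to 6.45%. Scaling by upper quartiles moved the median gene to a log2 fold change of -0.23, and then 40.8% of the called genes were higher, against 51.5% with TMM. Changes below are therefore relative to the bulk of genes. A fit with 1 RUVs factor, a term for unwanted variation estimated from differences between replicates, called 4589 genes higher and 3993 lower and turned the sign of 149 of the genes changed at least 2-fold, and it is named below where it ends or turns a result.

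**Figure D1:**
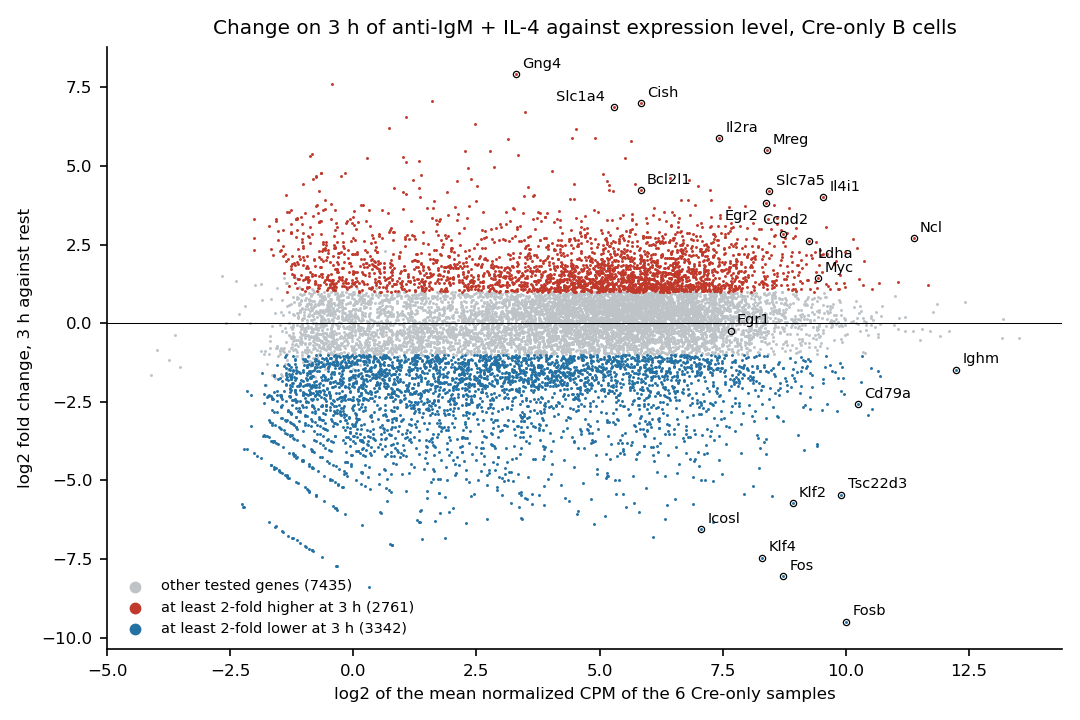
Each point is 1 of 13538 tested genes, with the log2 of its mean normalized CPM over the 6 Cre-only samples on the horizontal axis and its log2 fold change at 3 h against rest on the vertical axis. The 2761 genes at least 2-fold higher (red) and 3342 at least 2-fold lower (blue) spread over the whole range of levels, with Fosb at -9.49 and Gng4 at 7.91 at the ends and Egr1 close to 0.

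Among 33 tested immediate early transcription factors, 12 rose and 17 fell, beside 38.6% and 36.4% of all tested genes, and 8 and 13 of them changed at least 2-fold, beside 20.4% and 24.7%. The list's median log2 fold change was -0.25. The AP-1 subunits FOS, FOSB and JUN fell from high to very low levels. Fosb (ENSMUSG00000003545, mm9 chromosome 7, 19888070 to 19895394) had 2111, 1952 and 2105 CPM in the 3 resting samples and 2.55, 3.20 and 2.87 CPM in the 3 activated ones (log2 fold change -9.49 ± 1.22 (SE), edgeR quasi-likelihood adjusted p = 1.60e-05). Fos had 802, 814 and 932 CPM at rest and 2.94, 3.59 and 3.12 CPM at 3 h (log2 fold change -8.05 ± 0.84 (SE), edgeR quasi-likelihood adjusted p = 2.71e-06). Every resting sample thus stood more than 100-fold above every activated sample for both genes. Jun, the usual partner of FOS, had 445, 424 and 568 CPM at rest and 12.3, 9.67 and 11.3 CPM at 3 h (log2 fold change -5.43), and Junb, Jund, Atf3 and Klf6 had log2 fold changes of -2.73, -3.69, -2.59 and -3.85. Nr4a1, a nuclear receptor gene induced by antigen receptors, was also high at rest, with 1014, 1303 and 1209 CPM, and fell to 443, 514 and 446 CPM (-1.33). The samples at rest were therefore not free of immediate early transcripts, and how these came to be there was not tested.

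Other early factors moved the opposite way. Egr2, a zinc finger factor downstream of antigen receptors (ENSMUSG00000037868, mm9 chromosome 10, 66998223 to 67004936), had 42.4, 46.6 and 44.6 CPM at rest and 624, 622 and 626 CPM at 3 h, with no overlap (log2 fold change 3.81 ± 0.27 (SE), edgeR quasi-likelihood adjusted p = 1.04e-07). Its paralog Egr1 had 199.9, 241 and 216 CPM and 206, 199 and 153 CPM, and the groups overlapped (-0.24, edgeR adjusted p = 0.262, and 0.0240 under upper-quartile scaling, where it was at -0.50). Egr3 lay between these, at 104 to 151 CPM (0.54). Batf and Fosl2, AP-1 proteins that pair with JUN family members, rose from 11.1 to 111 CPM (3.33) and from 22.9 to 138 CPM (2.59), and Nr4a3, a relative of Nr4a1, rose from 45.6 to 287 CPM (2.65). Within the AP-1 and NR4A families members thus moved in opposite directions. Myc, the growth regulator, had 328, 374 and 426 CPM at rest and 964, 1064 and 1015 CPM at 3 h, with every activated sample above every resting one (log2 fold change 1.43 ± 0.19 (SE), edgeR quasi-likelihood adjusted p = 1.79e-05).

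**Figure D2:**
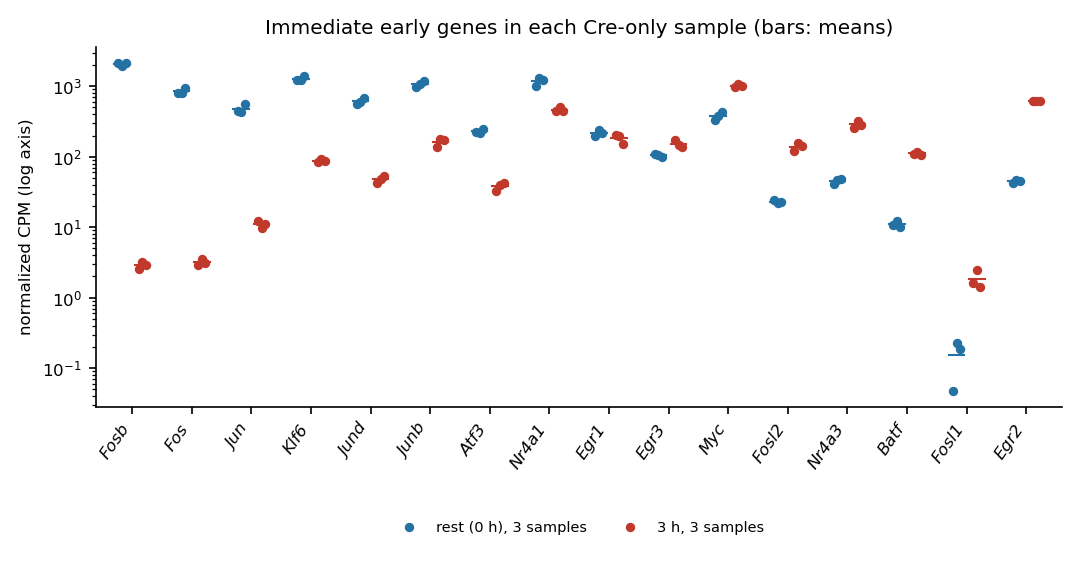
Normalized CPM (log axis) of 16 immediate early genes in each resting (blue) and 3-h (red) Cre-only sample, 1 point a sample and a short bar at the mean. From Fosb at the left to Nr4a1 the resting samples are higher, Egr1 overlaps, and from Egr3 to Egr2 the 3-h samples are higher.

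To set the regulatory sequence beside these opposite changes, the 250 bases before the transcription start of the most raised and the most lowered of the named early genes with a match to a searched motif are shown, from RefSeq annotation of GRCm38.p6, on the gene's own strand from 5′ to 3′, with the match in capitals. The Egr2 window (chr10:67537316-67537565, plus strand) held a match to the serum response element, the site of SRF, from 72 to 63 bases before the start, and the Fosb window (chr7:19310046-19310295, minus strand) held a match to the NF-kB motif from 188 to 179 bases before it. Where a gene had several windows, the one with the motif that the fewest windows hold was taken. Egr2 had 5 windows and Fosb 1. A match is a stretch of letters and no evidence that the factor binds there.
Egr2: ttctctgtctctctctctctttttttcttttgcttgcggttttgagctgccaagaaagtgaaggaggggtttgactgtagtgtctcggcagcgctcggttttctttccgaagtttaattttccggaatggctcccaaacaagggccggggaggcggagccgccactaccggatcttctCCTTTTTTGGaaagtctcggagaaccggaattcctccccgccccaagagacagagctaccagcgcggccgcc
Fosb: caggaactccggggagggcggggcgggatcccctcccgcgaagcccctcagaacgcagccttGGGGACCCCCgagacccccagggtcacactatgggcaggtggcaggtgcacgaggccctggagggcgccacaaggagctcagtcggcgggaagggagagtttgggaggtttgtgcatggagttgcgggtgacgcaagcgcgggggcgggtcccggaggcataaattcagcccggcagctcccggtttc

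Genes of the NF-kB pathway changed less than the early factors. Of 23 tested, 10 rose and 8 fell, beside 38.6% and 36.4% of all tested genes, and only 4 and 2 changed at least 2-fold. The median of 0.16 turned to -0.10 under upper-quartile scaling, where 6 rose and 11 fell. Nfkb1, which encodes p105 and p50, had 332, 337 and 327 CPM at rest and 957, 1062 and 1028 CPM at 3 h (log2 fold change 1.61 ± 0.12 (SE), edgeR quasi-likelihood adjusted p = 1.71e-07). Traf1, Nfkbie and Nfkbib, the last pair inhibitors of the IkB family, rose by log2 1.84, 1.48 and 1.16. The classical inhibitor gene Nfkbia rose by only 0.38 (173 to 225 CPM; -0.05 with the RUVs factor), and Rel did not pass the test (667 to 838 CPM, edgeR adjusted p = 0.366). Rel was called higher with the RUVs factor (1.92, edgeR adjusted p = 4.37e-05), with the Cre-only samples alone (0.26, edgeR adjusted p = 0.000593) and without the 2 Runx1 c-k/o libraries described at the end (0.28, edgeR adjusted p = 0.00866). Tnfaip3, whose product A20 shuts the pathway down, was lower at 3 h, with 1138, 1000.0 and 1026 CPM at rest and 484, 558 and 491 CPM at 3 h (log2 fold change -1.04 ± 0.12 (SE), edgeR quasi-likelihood adjusted p = 6.15e-06), and its partner Tnip1 fell by 1.05. A window before a Tnfaip3 start (chr10:19015411-19015660 of GRCm38.p6, minus strand) is shown. Tnfaip3 was the most lowered of the preset key genes of this list with a 2-fold change and a match. The window, 1 of 2 for the gene, was taken by the motif rule given above. It held NF-kB matches from 125 to 116 and from 12 to 3 bases before the start and a STAT6 match at 242 to 233. It also held a TATA box at 225 to 220, an AP-1 match at 136 to 130 and an E-box at 33 to 28, all in capitals.
Tnfaip3: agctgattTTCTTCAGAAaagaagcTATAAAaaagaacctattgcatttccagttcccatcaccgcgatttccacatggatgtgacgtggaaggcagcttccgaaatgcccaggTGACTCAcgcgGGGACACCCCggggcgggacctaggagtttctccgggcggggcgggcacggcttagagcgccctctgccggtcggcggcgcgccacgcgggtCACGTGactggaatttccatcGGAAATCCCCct

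Regulators of MAP kinase signalling fell more often than they rose, 10 against 6 of 20 tested, with a median of -0.40. Dusp1, a phosphatase that inactivates MAP kinases in the nucleus, had 304, 277 and 354 CPM at rest and 4.49, 2.87 and 4.08 CPM at 3 h (log2 fold change -6.33 ± 0.55 (SE), edgeR quasi-likelihood adjusted p = 5.66e-07). Dusp6, which acts on ERK, fell from 118 to 12.6 CPM (-3.21), and Rasgrp3, an activator of RAS in B cells, from 264 to 25.5 CPM (-3.37). Dusp3 and Spred1 rose by 1.48 and 1.02. Among 21 calcium and NFAT genes 7 rose and 12 fell. The IP3 receptor Itpr3 fell from 506 to 59.1 CPM (-3.10), the calcium pump of the endoplasmic reticulum Atp2a3 from 888 to 189.7 CPM (-2.23) and Nfatc2 from 52.4 to 10.4 CPM (-2.34). Orai1, the pore of the store-operated calcium channel, had 10.3, 12.3 and 10.7 CPM at rest and 80.1, 89.4 and 91.7 CPM at 3 h (log2 fold change 2.97 ± 0.31 (SE), edgeR quasi-likelihood adjusted p = 2.38e-06), and Nfatc1 rose from 357 to 660.0 CPM (0.88). At least 2-fold, 9 members of the MAP kinase list fell and 2 rose, and 8 members of the calcium list fell and 4 rose. The shares over all tested genes were 24.7% and 20.4%.

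Genes of the BCR itself were lower at 3 h. Of 31 tested components of the receptor and its co-receptors 19 fell, 13 of them at least 2-fold, and 4 rose, with a median of -0.83. Cd79a had 2178, 2181 and 1873 CPM at rest and 383, 333 and 331 CPM at 3 h, all 3 activated samples below all 3 resting ones (log2 fold change -2.57 ± 0.16 (SE), edgeR quasi-likelihood adjusted p = 4.02e-08). Cd79b fell from 826 to 373 CPM (-1.15). Sykb, as the annotation names the kinase gene Syk, had 1306, 1272 and 1296 CPM at rest and 91.9, 78.7 and 87.0 CPM at 3 h (log2 fold change -3.91 ± 0.28 (SE), edgeR quasi-likelihood adjusted p = 1.22e-07). The heavy chain gene Ighm had 7543, 7185 and 6848 CPM at rest and 2783, 2346 and 2611 CPM at 3 h (-1.48). The smaller set of raised genes held Fyn, a SRC family kinase, at 64.2 to 366 CPM (2.51), and Cr2, a complement receptor that acts with the BCR, at 945 to 2021 CPM (1.10).

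Receptors and phosphatases that hold BCR signalling in check fell together with the receptor. Of 31 tested, 20 fell, 18 at least 2-fold, and 7 rose, with a median of -1.51. Siglecg had 610.0, 553 and 589 CPM at rest and 27.9, 20.4 and 23.2 CPM at 3 h (log2 fold change -4.61 ± 0.32 (SE), edgeR quasi-likelihood adjusted p = 9.30e-08). Fcgr2b, the inhibitory receptor for IgG, fell from 169 to 14.8 CPM (-3.51), Cd22 from 1341 to 228 CPM (-2.56), Pecam1 from 275 to 8.62 CPM (-4.99) and Ceacam1 from 68.5 to 0.985 CPM (-6.14). Cytoplasmic phosphatase genes moved in both directions. Ptpn14 and Ptpn18 fell from 41.1 to 0.787 CPM (-5.66) and from 49.1 to 17.1 CPM (-1.53). Ptpn6 (SHP-1) fell by only 0.51 (654 to 461 CPM), Ptpn1 rose from 198 to 468 CPM (1.24), and the inhibitory receptor gene Lilrb4 rose from 16.4 to 110.3 CPM (2.75).

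IL-4 target genes changed in both directions, with the largest rises in Cish, Bcl2l1 and Il4i1. Of 27 tested genes of the IL-4 receptor and response, 13 rose, 9 at least 2-fold, and 10 fell. Among all tested genes 38.6% rose, 20.4% at least 2-fold, and 36.4% fell. The median of the list was 0.02, and -0.24 under upper-quartile scaling. Cish, a STAT-induced inhibitor of cytokine signalling (ENSMUSG00000032578, mm9 chromosome 9, 107198357 to 107205115), had 0.819, 1.20 and 0.620 CPM at rest and 112, 98.9 and 129 CPM at 3 h (log2 fold change 6.99 ± 0.77 (SE), edgeR quasi-likelihood adjusted p = 4.02e-06). Its relative Socs1 rose from 2.11 to 24.6 CPM (3.54), and Socs3 fell from 84.5 to 25.4 CPM (-1.74). Il4i1, an L-amino acid oxidase gene named for its induction by IL-4, had 85.8, 87.4 and 86.8 CPM at rest and 1327, 1471 and 1410.0 CPM at 3 h (log2 fold change 4.02 ± 0.31 (SE), edgeR quasi-likelihood adjusted p = 1.92e-07). Ccl22, a chemokine that attracts T cells, rose from 0.719 to 9.49 CPM (3.72), and Nfil3, a leucine zipper factor, from 11.5 to 124 CPM (3.43). Stat6 itself rose by 0.75 (252 to 424 CPM), and the IgG1 constant region gene Ighg1, whose germline transcripts IL-4 is known to induce, rose from 2.42 to 6.98 CPM (1.56). With the RUVs factor Ighg1 did not pass (1.42, edgeR adjusted p = 0.248). Il4ra, a chain of the receptor, was at 387, 397 and 365 CPM at rest and 364, 373 and 372 CPM at 3 h and did not pass the test (edgeR adjusted p = 0.609), although it was called lower under upper-quartile scaling (-0.31, edgeR adjusted p = 0.00523), with at least 10 counts in every sample (-0.21, edgeR adjusted p = 0.0464) and with the Cre-only samples alone (-0.12, edgeR adjusted p = 0.0139). Fcer2a (CD23), whose promoter drives the Cre transgene, was at 1074, 1133 and 1085 CPM at rest and 1107, 1152 and 1089 CPM at 3 h with overlapping groups (edgeR adjusted p = 0.846). Among other STAT genes Stat5a rose from 45.1 to 377 CPM (3.06) and Stat3 from 183 to 887 CPM (2.28), and Bcl6, a repressor that competes with STAT factors and directs the germinal centre, fell from 126 to 31.1 CPM (-2.02).

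Surface genes of activation and costimulation changed in both directions, 9 up and 12 down of 26 tested, beside 38.6% and 36.4% of all tested genes. Il2ra (CD25), a chain of the IL-2 receptor (ENSMUSG00000026770, mm9 chromosome 2, 11564419 to 11614818), had 6.505, 5.92 and 4.77 CPM at rest and 339.6, 361 and 317 CPM at 3 h (log2 fold change 5.88 ± 0.72 (SE), edgeR quasi-likelihood adjusted p = 1.10e-05). Cd86, a ligand that costimulates T cells, had 59.2, 58.8 and 60.8 CPM and 259, 347 and 330.0 CPM (log2 fold change 2.39 ± 0.24 (SE), edgeR quasi-likelihood adjusted p = 1.66e-06), and Cd44 rose from 117 to 759.5 CPM (2.70), Cd83 from 954 to 2333 CPM (1.29) and the transferrin receptor gene Tfrc from 195 to 583 CPM (1.58). Icosl, the ligand of the T cell receptor ICOS, moved the other way, with 236, 278 and 283 CPM at rest and 2.55, 3.27 and 2.74 CPM at 3 h (log2 fold change -6.55 ± 0.56 (SE), edgeR quasi-likelihood adjusted p = 4.94e-07). Cd24a, Cd38 and Plaur fell by 2.98, 2.66 and 3.26. Cd69, often used as an early activation marker, was already at 649.9, 702 and 714 CPM at rest and was at 491, 586 and 529 CPM at 3 h (-0.36, edgeR adjusted p = 0.0547 with a replicate block). Il7r, listed among the T cell markers, had 2.41, 1.20 and 1.61 CPM at rest and 109.8, 93.1 and 93.0 CPM at 3 h (log2 fold change 5.80 ± 0.62 (SE), edgeR quasi-likelihood adjusted p = 3.15e-06), while the defining T cell genes Cd3d, Cd3e and Cd3g had between 0 and 17 counts in any Cre-only library.

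Of 25 tested cytokine and chemokine genes 10 rose and 11 fell, beside 38.6% and 36.4% of all tested genes. Ccl4, a chemokine for T cells and monocytes, rose from 6.31 to 30.1 CPM (2.25), Tnf from 3.80 to 10.8 CPM, Vegfa from 15.8 to 85.7 CPM (2.45) and Mif from 43.2 to 221 CPM (2.36). Ltb, a subunit of the lymphotoxin that shapes lymphoid tissue, had 242, 259 and 252 CPM at rest and between 9.28 and 13.2 CPM at 3 h (log2 fold change -4.53 ± 0.32 (SE), edgeR quasi-likelihood adjusted p = 1.08e-07), and Lta fell from 20.9 to 3.04 CPM (-2.78). Homing genes fell more often. Of 27 tested 17 fell, 14 at least 2-fold, and 7 rose, with a median of -1.27. S1pr1, the receptor for exit into blood and lymph, had 456, 492 and 448 CPM at rest and 114, 104 and 103 CPM at 3 h (log2 fold change -2.12 ± 0.12 (SE), edgeR quasi-likelihood adjusted p = 2.26e-08). Itga4 fell from 552 to 44.3 CPM (-3.64), Cxcr4 from 1147 to 338 CPM (-1.76) and Ccr7 from 1332 to 551 CPM (-1.27). Gpr183 (EBI2), which guides activated B cells to the outer follicle, rose from 215 to 554 CPM (1.36) and S1pr3 from 22.7 to 169 CPM (2.90). Regulators of G-protein signalling, which dampen such receptors, fell with them, 13 of 20 tested against 3 that rose and 0 that rose at least 2-fold. Rgs2 fell from 761 to 88.2 CPM (-3.11), Rgs1 from 230.3 to 31.1 CPM (-2.89) and Rgs14 from 81.9 to 2.58 CPM (-4.99).

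Genes that keep lymphocytes quiescent were among the most lowered lists, with 28 of 37 tested falling, 24 at least 2-fold, 5 rising and a median of -1.63. Klf2, which maintains the resting state and the homing receptors of lymphocytes (ENSMUSG00000055148, mm9 chromosome 8, 74842932 to 74845555), had 889.5, 904 and 1072 CPM at rest and 19.4, 15.7 and 19.5 CPM at 3 h (log2 fold change -5.71 ± 0.50 (SE), edgeR quasi-likelihood adjusted p = 5.73e-07). Klf4 had 664, 619 and 598 CPM at rest and 4.36, 2.87 and 3.31 CPM at 3 h (log2 fold change -7.46 ± 0.79 (SE), edgeR quasi-likelihood adjusted p = 2.99e-06). Tsc22d3 (GILZ), a leucine zipper protein induced by glucocorticoids and FOXO factors, had 1859, 1924 and 1884 CPM at rest and 40.3, 45.9 and 43.6 CPM at 3 h (log2 fold change -5.45 ± 0.38 (SE), edgeR quasi-likelihood adjusted p = 9.46e-08). Foxo1 itself fell from 382 to 91.9 CPM (-2.06), Txnip, which binds thioredoxin and limits glucose uptake, from 966 to 82.5 CPM (-3.55), and the antiproliferative genes Btg1 and Btg2 from 2401 to 844 CPM (-1.51) and from 489 to 63.2 CPM (-2.95). Slfn2, which is needed for lymphocyte quiescence, went against the rest of the list and rose from 60.6 to 310.4 CPM (2.36). The 250 bases before a start of Tsc22d3 (chrX:140542669-140542918 of GRCm38.p6, minus strand) are shown as an example of a promoter of a lowered quiescence gene. They were 1 of 3 windows of the gene, taken by the motif rule given above, and held a match to the RUNX motif from 204 to 199 bases before the start, in capitals.
Tsc22d3: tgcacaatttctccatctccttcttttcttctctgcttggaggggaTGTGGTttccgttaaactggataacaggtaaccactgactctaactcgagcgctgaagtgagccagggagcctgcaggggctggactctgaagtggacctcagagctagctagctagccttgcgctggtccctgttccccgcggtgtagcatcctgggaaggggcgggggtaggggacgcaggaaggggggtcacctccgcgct

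**Figure D3:**
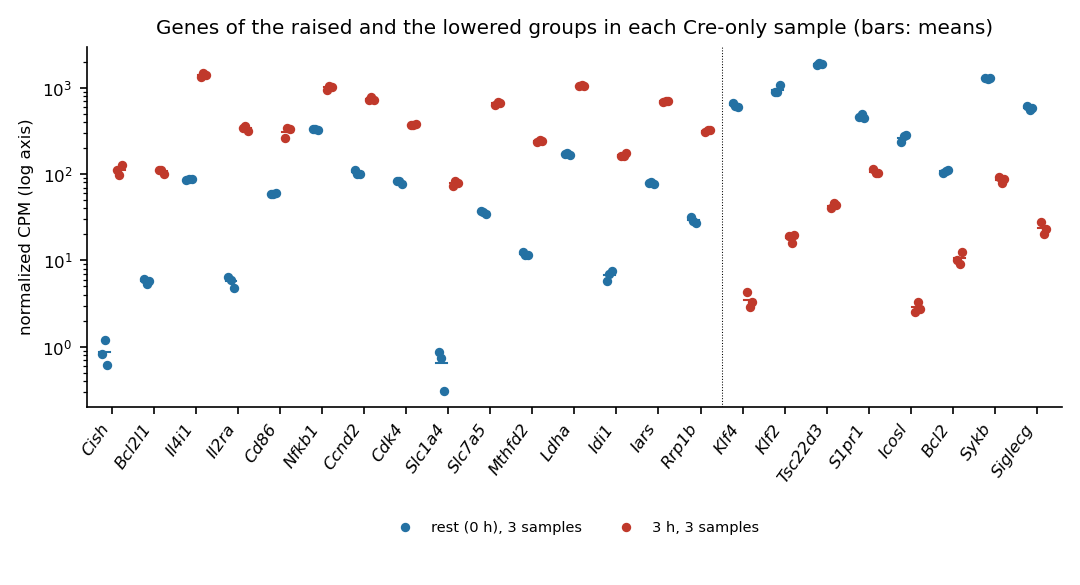
Normalized CPM (log axis) in each Cre-only sample of 15 raised genes (left of the dotted line) and 8 lowered genes (right of it), blue for rest and red for 3 h, with a short bar at each mean. The genes were chosen as raised or lowered, and the groups do not overlap for any of the 23, beside no overlap for 84.4% of all tested genes. The log2 fold change is largest for Cish on the left and Klf4 on the right.

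Transcription factors that define B cells fell in most cases, 24 of 31 tested, 17 at least 2-fold, against 5 that rose, with a median of -1.14. Pax5, the commitment factor of the lineage, had 357, 366 and 364 CPM at rest and 97.1, 87.9 and 85.9 CPM at 3 h (log2 fold change -2.00 ± 0.11 (SE), edgeR quasi-likelihood adjusted p = 2.08e-08). Ets1, which restrains plasma cell differentiation, fell from 1280.0 to 188 CPM (-2.77), Bcl11a from 309 to 55.8 CPM (-2.47) and Bach2 from 394 to 189 CPM (-1.06), while Ebf1 fell by only 0.27 (362 to 300.1 CPM, edgeR adjusted p = 0.0807 with a replicate block). With the RUVs factor Bach2 and Ebf1 were at 0.05 and 0.10, and the falls given next for Prdm1 and Runx3 did not pass (-0.61, edgeR adjusted p = 0.0610, and -0.03, edgeR adjusted p = 0.855). Irf8 rose from 473 to 811 CPM (0.78), Irf4, a target of BCR and NF-kB signalling, by 0.36 from a high resting level (1384 to 1777 CPM), the coactivator gene Pou2af1 from 629.9 to 1411 CPM (1.16) and Xbp1, a factor of the secretory programme, from 61.9 to 241 CPM (1.96). Prdm1, which encodes the plasma cell regulator BLIMP-1, fell from 16.4 to 7.45 CPM (-1.14). Of the RUNX genes, Runx1 had 83.6, 81.8 and 86.7 CPM at rest and 38.5, 37.0 and 34.9 CPM at 3 h (log2 fold change -1.19 ± 0.14 (SE), edgeR quasi-likelihood adjusted p = 6.59e-06), Runx3 fell by 0.40 (89.0 to 67.4 CPM), and Cbfb, the shared partner of RUNX proteins, rose from 135 to 285 CPM (1.08). In the NOTCH2 pathway, which directs the marginal zone fate, 8 of 28 tested rose and 13 fell, beside 38.6% and 36.4% of all tested genes. Notch2 fell from 583 to 109.6 CPM (-2.41) and its target Hes1 from 41.8 to 3.12 CPM (-3.74), and Rbpj, the DNA-binding partner of NOTCH, rose from 62.7 to 220.5 CPM (1.81).

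Most interferon-stimulated genes were lower at 3 h, and innate sensors were split. Of 42 tested interferon-stimulated genes 34 fell, 28 at least 2-fold, and 1 rose (Ifi35, by 0.61), with a median of -1.47. Gbp3, a guanylate-binding protein gene, fell from 53.1 to 4.62 CPM (-3.50), Oas2, an antiviral enzyme gene, from 36.4 to 4.55 CPM (-2.99) and Mx1 from 27.8 to 6.96 CPM (-2.00). With the RUVs factor neither Mx1 (-0.86, edgeR adjusted p = 0.154) nor Ifi35 (0.11, edgeR adjusted p = 0.443) passed. Irf7, a factor that amplifies the interferon response, had 62.0, 52.7 and 64.5 CPM at rest and 13.6, 12.6 and 19.1 CPM at 3 h (-1.98). Of 23 Toll-like receptor genes and partners 12 fell and 7 rose, beside 36.4% and 38.6% of all tested genes. Tlr1 fell from 132 to 16.2 CPM (-3.02) and Cd180, a regulator of Toll-like receptor 4 in B cells, from 383 to 136 CPM (-1.49), and Tlr7, a sensor of single-stranded RNA, rose from 62.8 to 185 CPM (1.56).

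Ribosome biogenesis was the only list in which every tested member rose. All 104 tested genes of ribosome biogenesis and the nucleolus rose, 97 at least 2-fold, with a median of 2.19, and their summed level went from 7059 to 7248 CPM in the resting samples to 31270 to 32710 CPM in the activated ones. Ncl (nucleolin) rose from 713 to 4625 CPM (2.70). Rrp1b, a nucleolar protein gene, had 32.0, 28.9 and 27.4 CPM at rest and 309, 329 and 321 CPM at 3 h (log2 fold change 3.44 ± 0.27 (SE), edgeR quasi-likelihood adjusted p = 2.22e-07). Polr1b, a subunit of RNA polymerase I, which transcribes ribosomal RNA, had 38.3, 39.4 and 43.5 CPM and 361, 379 and 366 CPM (log2 fold change 3.19 ± 0.20 (SE), edgeR quasi-likelihood adjusted p = 5.36e-08). Nop2 and Nop16 rose from 39.4 to 337 CPM (3.10) and from 15.6 to 147 CPM (3.23). The mRNAs of the ribosomal proteins themselves behaved differently. Of 78 tested cytosolic ribosomal protein genes 5 rose, 3 fell and 70 did not pass the test, with a median of 0.03 that was -0.23 under upper-quartile scaling, while of 78 mitochondrial ribosomal protein genes 71 rose and 0 fell, with a median of 1.04. Mrpl12 rose from 18.7 to 80.9 CPM (2.11). The call for ribosomal protein genes turned on the model, since 75 cytosolic ones fell and 1 rose with the RUVs factor and 31 fell and 21 rose with the 6 Cre-only samples alone, and 39 of the mitochondrial ones rose with the RUVs factor.

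Genes that make and fold protein rose with them. Of 50 tested translation factors 40 rose and 3 fell (median 1.20), and of 22 aminoacyl-tRNA synthetase genes 20 rose, 19 at least 2-fold, and 1 fell (median 2.17). Eif4a1, the helicase of cap-dependent initiation, had 350.4, 357 and 352 CPM at rest and 1682, 1706 and 1671 CPM at 3 h (log2 fold change 2.26 ± 0.24 (SE), edgeR quasi-likelihood adjusted p = 2.81e-06), and Eif4e, which binds the cap, rose from 54.4 to 238 CPM (2.13). Iars, which loads isoleucine on its tRNA, had 79.5, 80.1 and 77.2 CPM and 692, 713 and 707 CPM (log2 fold change 3.16 ± 0.20 (SE), edgeR quasi-likelihood adjusted p = 4.70e-08), and Tars, Yars and Cars rose by 3.09, 3.08 and 3.07. Pdcd4, which inhibits EIF4A, fell from 142 to 48.6 CPM (-1.55). Of 48 chaperone genes 39 rose and 6 fell (median 1.22). The mitochondrial chaperone genes Hspd1 and Hspa9 rose from 217 to 878 CPM (2.01) and from 210.2 to 955 CPM (2.18), Cct3, a subunit of the cytosolic folding chamber, from 149 to 692 CPM (2.21) and Hspa5 (BiP), of the endoplasmic reticulum, from 789 to 1826 CPM (1.21). The heat-shock genes Hspa1a and Hspa1b were the exception. Hspa1a had 25.2, 90.9 and 158 CPM at rest, an uneven set, and 1.60, 1.70 and 1.40 CPM at 3 h (log2 fold change -5.86 ± 0.74 (SE), edgeR quasi-likelihood adjusted p = 1.44e-05), and Hspa1b, a near-identical copy whose reads may be shared with it, fell from 162 to 2.92 CPM (-5.79). With the RUVs factor neither passed (Hspa1a at -3.72, edgeR adjusted p = 0.124, and Hspa1b at -4.17, edgeR adjusted p = 0.0859).

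Of 42 proteasome genes 37 rose and 2 fell (median 1.11). Psmd1, of the regulatory particle, rose from 81.5 to 253 CPM (1.63) and Psme3, an activator of the nuclear proteasome, from 135 to 565 CPM (2.06), whereas both fallers, Psmb8 (121 to 69.4 CPM, -0.80) and Psmb10 (66.7 to 38.1 CPM, -0.81), encode subunits of the immunoproteasome, which trims peptides for antigen presentation. Of 70 splicing factor genes 56 rose and 8 fell (median 0.77), with Prpf31 at 43.3 to 197 CPM (2.18) and the kinase gene Clk1 at 719 to 262 CPM (-1.45) at the ends. Of 33 regulators of mRNA decay 17 rose and 10 fell, beside 38.6% and 36.4% of all tested genes. The median of 0.23 turned to -0.04 under upper-quartile scaling, where 9 rose and 12 fell. The AU-rich element binders Zfp36 and Zfp36l2, which destabilize cytokine and early gene transcripts, fell from 786 to 220.4 CPM (-1.83) and from 501 to 72.1 CPM (-2.80), and Zc3h12a (Regnase-1) from 184 to 76.4 CPM (-1.26). Its relative Zc3h12c rose from 45.4 to 205 CPM (2.17).

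**Figure D4:**
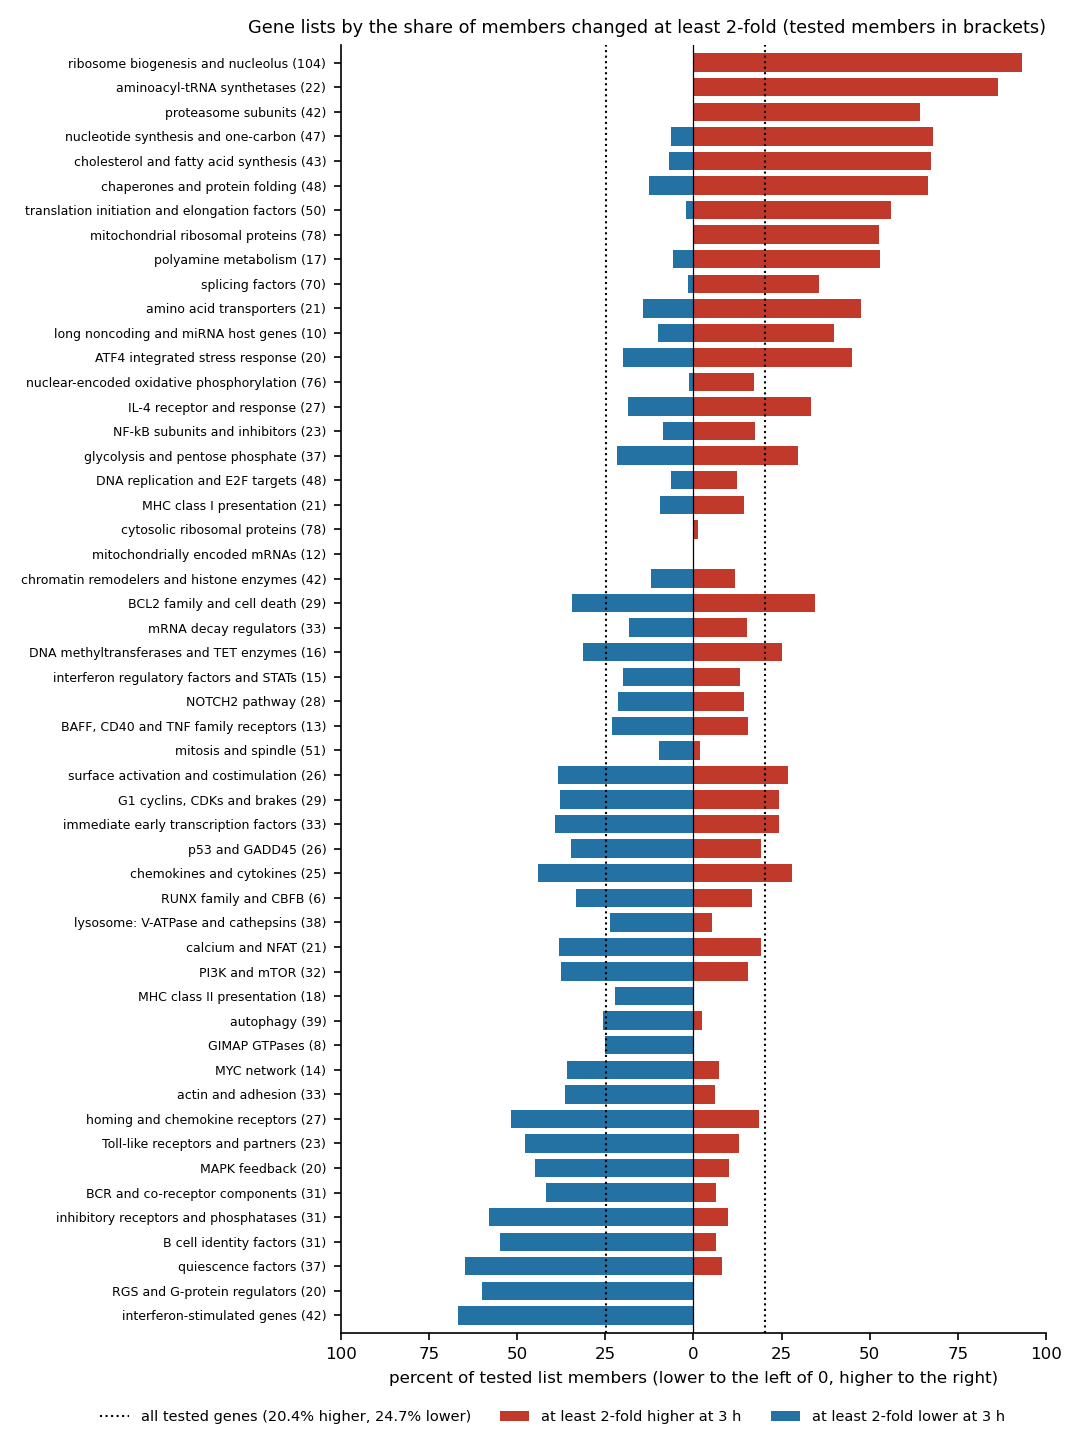
Percent of the tested members of 52 gene lists that were at least 2-fold higher (red, to the right of 0) or at least 2-fold lower (blue, to the left) at 3 h, sorted by the difference. Dotted lines mark the shares over all tested genes, 20.4% and 24.7%. Ribosome biogenesis, with 97 of 104 members at least 2-fold higher, is at the top and interferon-stimulated genes, with 28 of 42 at least 2-fold lower, at the bottom.

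Amino acid transport changed through a few genes. Of 21 tested amino acid transporters and branched-chain enzymes 10 rose, each at least 2-fold, and 5 fell. The median of 0.12 turned to -0.14 under upper-quartile scaling, whereas the risers kept large changes. Slc7a5, the light chain of the large neutral amino acid transporter, had 37.1, 36.6 and 34.6 CPM at rest and 639, 683 and 668 CPM at 3 h (log2 fold change 4.20 ± 0.37 (SE), edgeR quasi-likelihood adjusted p = 6.06e-07). Slc1a4, which carries alanine, serine and cysteine, had 0.867, 0.740 and 0.310 CPM and 73.2, 82.5 and 78.7 CPM (log2 fold change 6.88 ± 0.76 (SE), edgeR quasi-likelihood adjusted p = 4.59e-06), and Bcat1, a transaminase of branched-chain amino acids, rose from 1.01 to 58.6 CPM (5.89). Slc7a1, the arginine carrier, rose from 87.0 to 797 CPM (3.19), and Slc3a2, the heavy chain shared by several of these carriers, from 178 to 450.1 CPM (1.34). Genes of the amino acid and stress response under ATF4 rose in the same samples, 14 of 20 tested against 4 that fell (median 0.93). Atf4 had 316, 330.4 and 319 CPM at rest and 651, 712 and 685 CPM at 3 h (1.08). Asns, which makes asparagine, rose from 2.88 to 68.1 CPM (4.54), Trib3 from 0.712 to 42.5 CPM (5.88) and Chac1, which degrades glutathione, from 0.198 to 22.2 CPM (6.73). Ppp1r15a (GADD34), which reverses this response, fell from 734 to 164 CPM (-2.16).

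Of 47 genes of nucleotide synthesis and one-carbon metabolism 34 rose, 32 at least 2-fold, and 8 fell (median 1.59). Mthfd2, a mitochondrial enzyme of the folate cycle, had 12.4, 11.4 and 11.5 CPM at rest and 238, 248 and 244 CPM at 3 h (log2 fold change 4.37 ± 0.49 (SE), edgeR quasi-likelihood adjusted p = 4.68e-06). Shmt2 and Shmt1, which take a carbon from serine, rose from 69.8 to 714 CPM (3.35) and from 17.4 to 178 CPM (3.36), and Cad, which starts pyrimidine synthesis, from 92.8 to 502 CPM (2.43). Rrm2, the subunit of ribonucleotide reductase that is made in S phase, fell from 12.3 to 4.84 CPM (-1.35). Polyamine genes rose in 11 of 17 cases (median 1.16), with Srm, which makes spermidine, at 19.1 to 287 CPM (3.91) and Odc1, the entry enzyme, at 289.5 to 682 CPM (1.24).

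Of 43 genes of cholesterol and fatty acid synthesis 38 rose, 29 at least 2-fold, and 3 fell (median 1.51). Idi1, an enzyme of the sterol pathway, had 5.83, 6.95 and 7.44 CPM at rest and 161, 163 and 175 CPM at 3 h (log2 fold change 4.63 ± 0.41 (SE), edgeR quasi-likelihood adjusted p = 7.15e-07). Sqle, another such enzyme, rose from 15.2 to 289 CPM (4.25) and Fasn, fatty acid synthase, from 166 to 1379 CPM (3.05). Of the 3 that fell, Abca1 and Abcg1, which export cholesterol, went from 222 to 21.1 CPM (-3.40) and from 93.1 to 6.28 CPM (-3.87), and Mylip, a ubiquitin ligase, from 110.4 to 9.62 CPM (-3.51).

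Glycolysis and pentose phosphate genes rose in 23 of 37 cases and fell in 12 (median 0.59). Ldha, lactate dehydrogenase, had 173, 177 and 166 CPM at rest and 1038, 1087 and 1048 CPM at 3 h (log2 fold change 2.62 ± 0.28 (SE), edgeR quasi-likelihood adjusted p = 3.73e-06). Among isoenzymes the members diverged, since Hk2 (hexokinase 2) rose from 17.6 to 131 CPM (2.90) and Hk3 fell from 7.19 to 0.753 CPM (-3.17), and Pfkp rose from 75.6 to 400.1 CPM (2.40) and Pfkm fell from 5.14 to 1.40 CPM (-1.88). The glucose transporter gene Slc2a1 fell by 0.86 (74.2 to 40.9 CPM), and Slc2a6 rose from 10.7 to 82.0 CPM (2.94). Nuclear genes of oxidative phosphorylation rose in 49 of 76 cases and fell in 3 (median 0.58), with cytochrome c, Cycs, at 34.0 to 142 CPM (2.06). Of 12 tested mRNAs of the mitochondrial genome 0 rose and 5 fell, all less than 2-fold (median -0.26), and mt-Co1 went from 13670.0 to 9770.0 CPM (-0.48). Subunits of the same complexes encoded in the nucleus and in the mitochondrion therefore moved apart under TMM. The RUVs factor turned the nuclear list, with 9 that rose and 36 that fell, and the number of mitochondrial mRNAs that fell ranged from 1 to 3 with 1 sample left out, through 8 with DESeq2 size factors and 10 with upper quartiles, to 11 with the Cre-only samples alone.

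Cell cycle genes changed in both directions. Of 29 G1 genes 13 rose and 14 fell, beside 38.6% and 36.4% of all tested genes. Ccnd2, the D-type cyclin induced by BCR signals, had 113, 101 and 101 CPM at rest and 726, 793 and 727 CPM at 3 h (log2 fold change 2.83 ± 0.22 (SE), edgeR quasi-likelihood adjusted p = 2.00e-07), and its kinase Cdk4 had 84.2, 82.7 and 77.0 CPM and 367, 369 and 377 CPM (log2 fold change 2.19 ± 0.22 (SE), edgeR quasi-likelihood adjusted p = 2.28e-06). Cdk6 rose from 23.1 to 103 CPM (2.15). Ccnd3, another D-type cyclin, fell from 52.4 to 13.4 CPM (-1.97), Cdkn1b, which encodes the inhibitor p27, from 217 to 37.2 CPM (-2.55) and E2f2 from 80.6 to 4.52 CPM (-4.13). Of 48 DNA replication genes 17 rose, 17 fell and 14 did not pass, with a median of 0.14 that was -0.12 under upper-quartile scaling. The helicase genes Mcm2 and Mcm6 rose from 63.2 to 162 CPM (1.36) and from 76.8 to 205 CPM (1.42) and Pcna from 169.5 to 311 CPM (0.87), while Cdc6, which loads the helicase, fell from 4.48 to 1.83 CPM (-1.29). With the RUVs factor Pcna did not pass (0.16, edgeR adjusted p = 0.264). Of 51 mitosis genes 3 rose, 22 fell and 26 did not pass (median -0.42), and Mki67, a marker of dividing cells, went from 83.9 to 45.9 CPM (-0.87, and 0.03 with the RUVs factor). Upper-quartile scaling gave 41 mitosis genes that fell and the RUVs factor 12.

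Death regulators of the BCL2 family changed in both directions. Of 29 tested genes of this list 13 rose and 14 fell, 10 of each at least 2-fold. Among all tested genes 38.6% rose and 36.4% fell, 20.4% and 24.7% at least 2-fold. Bcl2l1, which encodes the survival protein BCL-XL (ENSMUSG00000007659, mm9 chromosome 2, 152593052 to 152657464), had 6.17, 5.35 and 5.83 CPM at rest and 111, 113 and 101 CPM at 3 h (log2 fold change 4.22 ± 0.39 (SE), edgeR quasi-likelihood adjusted p = 9.11e-07). Bcl2, its relative with the same role, had 102, 109.6 and 112 CPM at rest and 10.2, 9.08 and 12.4 CPM at 3 h (log2 fold change -3.35 ± 0.24 (SE), edgeR quasi-likelihood adjusted p = 1.15e-07). For each gene all 3 samples of one time lay above all 3 of the other, in opposite directions. Bcl2a1d and Bcl2a1b, survival genes of the A1 cluster whose copies may share reads, rose by 2.79 and 2.22, and a further copy, Bcl2a1a, fell from 1.45 to 0.187 CPM (-2.79), so the split between copies is uncertain. Mcl1 fell by 0.33 (658 to 523 CPM). Cflar, which blocks caspase 8, rose from 117 to 560.4 CPM (2.26), and Casp6 from 14.2 to 164 CPM (3.52). Of the BH3-only genes, which promote death, Bmf and Pmaip1 (NOXA) fell from 101 to 13.1 CPM (-2.94) and from 178 to 25.9 CPM (-2.78), and Bcl2l11 (BIM) rose from 114 to 202 CPM (0.82). In the p53 list 10 of 26 rose and 11 fell, beside 38.6% and 36.4% of all tested genes. Plk2 fell from 443 to 25.2 CPM (-4.14), Gadd45b rose from 18.3 to 86.3 CPM (2.24) and Trp53 itself by 0.84 (109 to 194 CPM).

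Antigen presentation was split. Of 18 MHC class II genes 4 rose and 11 fell, beside 38.6% and 36.4% of all tested genes. The class II chains H2-Aa (4249 to 6822 CPM, 0.68) and H2-Eb1 (2930.0 to 4487 CPM, 0.61) and their activator Ciita (480.3 to 709.8 CPM, 0.56) rose, and H2-Oa (236 to 56.7 CPM, -2.06) and H2-Ob (1321 to 450.3 CPM, -1.55), of the same list, fell. With the RUVs factor H2-Aa was at 0.07 (edgeR adjusted p = 0.590) and H2-Eb1 at -0.16, and Ciita lost its call with library totals, upper quartiles or at least 10 counts in every sample (edgeR adjusted p from 0.0582 to 0.153). March1, a ligase that removes class II and CD86 from the surface, had 222, 236 and 239 CPM at rest and 6.82, 8.75 and 8.15 CPM at 3 h (log2 fold change -4.88 ± 0.36 (SE), edgeR quasi-likelihood adjusted p = 1.55e-07). Of 21 class I genes 5 rose and 13 fell, among them Tap1, a peptide transporter gene, at 264 to 179 CPM (-0.56). Among 38 lysosome genes 16 rose and 11 fell, and the median of 0.06 was -0.20 under upper-quartile scaling, where 12 rose and 15 fell. Subunits of the proton pump rose, with Atp6v1c1 at 44.9 to 99.5 CPM (1.15), and proteases such as Ctss at 495 to 174 CPM (-1.51) and Ctsh at 295 to 80.6 CPM (-1.87) fell. Autophagy genes fell in 23 of 39 cases and rose in 7 (median -0.49).

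Of 32 genes of PI3 kinase and mTOR signalling 10 rose and 14 fell, beside 38.6% and 36.4% of all tested genes. Mtor rose from 84.7 to 193 CPM (1.19), Rragd, a GTPase that brings mTOR to the lysosome, from 7.67 to 77.7 CPM (3.34) and Phlpp1, a phosphatase of AKT, from 39.5 to 282 CPM (2.83). Of 33 actin and adhesion genes 3 rose and 17 fell, with Coro1a at 1181 to 319.6 CPM (-1.89) and Rhob at 348 to 12.6 CPM (-4.78). Of 42 chromatin genes 19 rose and 12 fell. The median of 0.11 turned to -0.15 under upper-quartile scaling, where 14 rose and 16 fell. Ezh2, the methyltransferase of the Polycomb complex, rose from 36.5 to 90.4 CPM (1.31) and Hdac7 fell from 200.4 to 34.8 CPM (-2.52). Of 16 genes of DNA methylation and its removal 5 rose and 6 fell, near the same shares, with Tet2 at 70.5 to 207 CPM (1.55), Dnmt3b at 13.4 to 48.4 CPM (1.85) and Tet1 at 9.40 to 0.351 CPM (-4.66). In the GIMAP family of lymphocyte GTPases 2 of 8 rose and 3 fell, with Gimap6 at 855 to 317 CPM (-1.43).

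Beyond the lists, genes with the largest changes were taken from protein-coding genes with at least 10 CPM at the higher time and no overlap between times. The 12 that rose most were Gng4, Cish, Slc1a4, Chac1, Lonrf3, Tbc1d30, Bcat1, Il2ra, Trib3, Lad1, Il7r and Mreg, and most have been described with the lists above. Gng4, a gamma subunit of heterotrimeric G proteins, had 0, 2 and 2 counts at rest and 420, 347 and 279 counts at 3 h, and Lonrf3 had 1, 3 and 3 and 296, 176 and 134 counts. Another such gene, Cst7, a cysteine protease inhibitor, went from 1, 0 and 1 counts to 139, 88 and 96 counts. These 3 were the only coding genes with at most 3 counts in every resting sample and at least 5 CPM in every activated one. Mreg (melanoregulin) had 14.8, 14.9 and 13.8 CPM at rest and 669, 695 and 615 CPM at 3 h (log2 fold change 5.51 ± 0.67 (SE), edgeR quasi-likelihood adjusted p = 1.00e-05). Lad1 and Tbc1d30 rose from 0.292 to 17.4 CPM (5.85) and from 0.627 to 45.3 CPM (6.16).

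The 12 that fell most were Fosb, Fos, Klf4, Slc40a1, Icosl, Dusp1, Gfra2, Zfp831, Hpgd, Ccr3, Ceacam1 and Abcg3. Slc40a1 (ferroportin), the iron exporter, had 136, 114 and 154 CPM at rest and 1.29, 1.24 and 1.02 CPM at 3 h (log2 fold change -6.81 ± 0.82 (SE), edgeR quasi-likelihood adjusted p = 8.85e-06). Macrophages of the spleen also express it, and the myeloid markers fell in the same samples, as given above. Hpgd, which inactivates prostaglandins, fell from 21.3 to 0.280 CPM (-6.23), Ccr3 from 20.9 to 0.279 CPM (-6.19) and Gfra2, a receptor subunit for a neurotrophic factor, from 12.99 to 0.157 CPM (-6.23). Zfp831 and Abcg3 fell from 158 to 2.08 CPM (-6.23) and from 46.2 to 0.646 CPM (-6.08). Only 2 coding genes, Tspan15 and Cdkl1, had at least 5 CPM in every resting sample and at most 3 counts in every activated one. Tspan15 had 116, 106 and 133 counts at rest and 1, 3 and 1 at 3 h, and Cdkl1 had 141, 121 and 124 and 3, 3 and 2.

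By CPM per kilobase of exon, which allows genes of different length to be compared, the highest transcripts at rest were mt-Co1 at 8845, Igkc at 7885, Cd74 at 7666, mt-Co2 at 6470.0 and mt-Co3 at 6125. At 3 h mt-Co1 was at 6324, Cd74, the invariant chain of MHC class II, at 5556, mt-Co3 at 5166, mt-Co2 at 4904, Eef1a1, an elongation factor gene, at 3926 and Igkc, the kappa light chain constant region, at 2488. Immunoglobulin variable segments fell as a class. Of 184 tested, 177 were lower, 174 at least 2-fold, and 0 higher, and the constant regions Igkc and Ighm fell by 1.66 and 1.48. The summed plasma cell markers given above were lower in the same 3-h samples, and their part in these falls was not tested.

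Among non-coding genes 132 of 442 tested lincRNAs rose and 148 fell, and 66 of 129 small nucleolar RNA genes rose and 22 fell, beside 38.6% and 36.4% of all tested genes. Poly(A) libraries hold few mature small RNAs, and which transcripts these reads come from was not tested. The transcript that contains the Mir155 hairpin (ENSMUSG00000091875, a lincRNA on mm9 chromosome 16, 84713268 to 84715487) had 8.29, 9.91 and 9.36 CPM at rest and 183, 251 and 213 CPM at 3 h (log2 fold change 4.55 ± 0.41 (SE), edgeR quasi-likelihood adjusted p = 7.75e-07). Mir17hg, the host of the miR-17-92 cluster and a target of MYC (ENSMUSG00000089726, mm9 chromosome 14, 115442101 to 115445949), had 28.9, 26.7 and 27.0 CPM at rest and 180.1, 215 and 202 CPM at 3 h (log2 fold change 2.85 ± 0.20 (SE), edgeR quasi-likelihood adjusted p = 1.22e-07). Every activated sample stood above every resting sample for both hosts. The mature miRNAs were not measured here. Their sequences are shown, from RefSeq annotation of GRCm38.p6, because the hosts were among the most raised non-coding genes, with the seed (bases 2 to 8) in capitals. In the cluster, miR-17-5p and miR-20a-5p share a seed, as do miR-19a-3p and miR-19b-3p.
miR-155-5p: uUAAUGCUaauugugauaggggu
miR-17-5p: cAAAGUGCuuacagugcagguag
miR-20a-5p: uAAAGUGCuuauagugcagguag
miR-18a-5p: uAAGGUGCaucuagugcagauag
miR-19a-3p: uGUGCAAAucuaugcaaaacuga
miR-19b-3p: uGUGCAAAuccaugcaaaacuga
miR-92a-3p: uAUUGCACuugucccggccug

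Other non-coding genes moved as far. D030028A08Rik rose from 3.28 to 69.8 CPM (4.41) and Snhg4, a host of small nucleolar RNAs, from 7.001 to 40.6 CPM (2.53). Malat1, an abundant nuclear RNA, had 2297, 2010.0 and 2044 CPM at rest and 745, 871 and 769 CPM at 3 h (-1.41), but its log2 fold change was 0.38 with the RUVs factor. Gm15408 fell from 58.2 to 0.691 CPM (-6.39) and Gm15675 from 87.4 to 2.04 CPM (-5.43). The last pair overlap the genes Gm15411 and Gm15674 on the opposite strand, which fell as well, and since the strand setting of the counting is not given in the sources used here, the partners may share reads.

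Promoter motifs were counted over all genes with a window in the RefSeq table, from 250 bases before to 50 after each start, on both strands. There were 2245 windows of 1845 genes at least 2-fold higher, 2680 windows of 2001 genes at least 2-fold lower and 11240 windows of 8817 tested genes. The E-box CACGTG, the preferred site of MYC with MAX and of USF, was in 14.3% of windows of raised genes, 7.16% of windows of lowered genes and 10.2% of all tested windows. The ETS motif CCGGAAG was in 20.2%, 7.76% and 17.3%. The order was the same in the 150 bases before the start, with 8.51%, 4.59% and 6.30% for the E-box and 13.2%, 4.66% and 11.1% for the ETS motif. The EGR motif GCGTGGGCG was in 1.38%, 0.672% and 1.20%, and the cyclic AMP response element TGACGTCA in 2.98%, 1.64% and 3.06%. By the ratio of the raised to the lowered share, the other motifs searched differed less. The NF-kB motif, searched by name, was in 10.3%, 11.4% and 10.5%, the serum response element in 1.43%, 1.68% and 1.27%, the AP-1 motif TGACTCA or TGAGTCA in 3.34%, 4.51% and 3.57%, the STAT6 motif, TTC and GAA 4 bases apart, in 6.46%, 4.93% and 5.39%, the RUNX motif TGTGGT in 14.0%, 15.4% and 13.3% and the TATA box TATAAA in 6.68%, 8.96% and 7.21%. No test was made of these shares, base composition and CpG content differ between promoters, and a window with no match says nothing of the factor.

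Coding genes at least 2-fold higher were shorter than those at least 2-fold lower, with a median of 8 exons and a gene span of 17.04 kb against 10 exons and 26.4 kb, and 9 exons and 22.4 kb over all tested coding genes. Their median level went from 17.6 to 58.2 CPM, and that of the lowered coding genes from 13.02 to 2.61 CPM. Protein-coding genes made up 89.9% of all genes at least 2-fold higher and 82.4% of those at least 2-fold lower.

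Nearly all genes changed at least 2-fold moved in the same direction in Runx1 c-k/o cells, and the number whose response differed depended on the fit. Of the 6103 genes called with at least 2-fold change in Cre-only cells, 6093 changed in the same direction in Runx1 c-k/o cells and 5878 also had an adjusted p under 0.05 there. Across genes the 2 sets of log2 fold changes had a Pearson correlation of 0.962. The contrasts share no samples, and genes are not independent replicates. The 69 genes that had at least 10 CPM at the higher time and changed 32-fold or more in Cre-only cells all changed less in Runx1 c-k/o cells, with a median absolute log2 fold change of 5.71 against 4.50. They were chosen by their Cre-only values, so this is a description with no test. A difference between the responses, tested as an interaction in edgeR's quasi-likelihood fit, passed for 11 genes (0.0813%). Itsn1, an endocytic scaffold gene, fell by 0.33 in Cre-only cells and rose by 1.29 in Runx1 c-k/o cells, a difference of 1.62 ± 0.18 (SE, edgeR adjusted p = 0.00720). Nr4a2, of the NR4A receptors above, fell by 1.63 in Cre-only cells and had a log2 fold change of -0.20 in Runx1 c-k/o cells, where it did not pass the test (difference 1.42, edgeR adjusted p = 0.00814). The median SD of log2(CPM + 1) between replicates was 0.0849 and 0.0842 in Cre-only cells at rest and at 3 h and it was 0.164 and 0.204 in Runx1 c-k/o cells, of which replicate 2 at rest and replicate 1 at 3 h stood apart from the others of their groups. Without that pair of libraries 187 genes passed, and 62 of the 69 strongly changed genes changed less in Runx1 c-k/o cells, with a median of 4.46. Itsn1 and Nr4a2 then differed by 1.71 and 1.37. With a replicate block 4 genes passed, among them Nr4a2 (edgeR adjusted p = 0.0439) and not Itsn1 (edgeR adjusted p = 0.0709). The block paired Runx1 c-k/o samples by number, a pairing that was checked only in Cre-only cells. The libraries that stood apart carry different numbers, so the block says little about these genes.

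**Figure D5:**
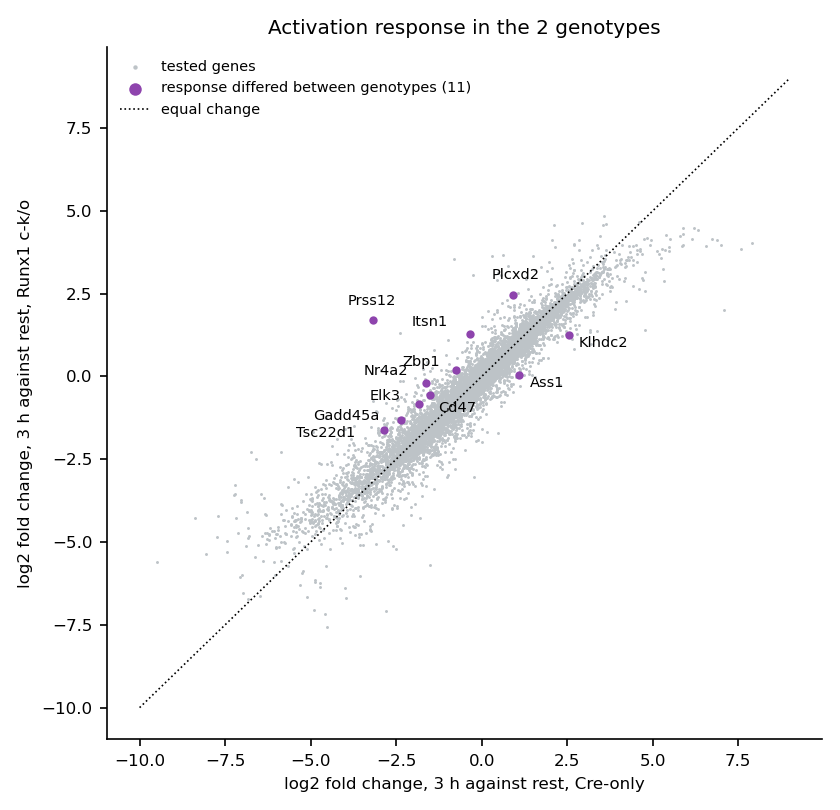
Log2 fold change at 3 h against rest of each tested gene in Cre-only cells (horizontal) and in Runx1 c-k/o cells (vertical), with a dotted line where they are equal. The 11 genes whose response differed between genotypes (purple) include Itsn1, Nr4a2 and Klhdc2, and most other genes lie along the line (r = 0.962 over all tested genes). Genes with the strongest Cre-only changes lie nearer 0 in Runx1 c-k/o cells, but they were picked by their Cre-only values and this was not tested.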

How the data were processed

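RNA from purified splenic B cells, with ERCC spike-in RNA added, was made into poly(A)-selected libraries with a stranded kit. The authors aligned reads to mouse genome mm9 (NCBIM37) with TopHat2 2.0.11, counted them on Ensembl genes with featureCounts and deposited raw read counts per gene and sample, without normalization. The strand setting of the counting is not given in the sources used here, and spike-in entries were not used. Gene positions and types came from an mm9 annotation and promoter and miRNA sequences from RefSeq.

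Of 37991 genes, 13538 passed edgeR's filterByExpr (minimum 10 counts). Groups were taken from sample titles. edgeR 4.0.16 (R 4.3.3) fitted a robust quasi-likelihood model to all 12 samples with 1 term for each of 4 groups after TMM normalization, and Benjamini-Hochberg adjustment covered all tested genes. SE is that of the fitted log2 fold change. Means are of 3 samples. With 3 samples against 3 an exact permutation test cannot give a p under 0.1. Counts limit precision through the floor of 3 counts, and floors cover counting error only. The model was checked on simulated counts of 13351 genes for this comparison, where 95 of 99 genes changed 4-fold, 63 of 98 changed 2-fold and 8 of 13154 unchanged genes were called. Few genes were changed there, with rises and falls balanced, whereas 75.0% of tested genes were called in the data. The simulation therefore cannot show errors that come from the choice of scaling. Same-numbered resting and 3-h samples deviated together (correlations 0.330, 0.240 and 0.197 against -0.222 to -0.0260 for other numbers), so the numbers were taken as pairs and a replicate block was fitted as an alternative. Other alternatives were DESeq2 size factors, library totals, upper-quartile factors, no filter, a filter of 10 counts in every sample, DESeq2 1.42.0 with its Wald test, 1 factor from RUVs, the Cre-only samples alone and each sample left out. The study's own test used DESeq2 with factors of unwanted variation whose number is not given in the sources used here.

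Genes and lists were chosen with earlier results of these data known. Genes named are the 12 coding genes with the largest rises and falls (at least 10 CPM, no overlap), the preset key members and up to 4 most changed members each way of every list, genes switched on or off, the 5 highest per kb of exon at each time, the 5 with the smallest interaction p and the 6 most changed non-coding genes each way. Atf3, Bcl2a1b, Ctsh, Fosl2, Ighg1, Itga4, Jund, Klhdc2, Ms4a1, Nfil3 and Tfrc were added after their values were seen. A few genes that the rule names are not reported here.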

Additional observations from a re-analysis of the deposited data

Results flagged for a closer look

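The activation response differed between genotypes, by the interaction term of edgeR's quasi-likelihood fit, for 11 of 13538 genes (0.0813%), and the 5 with the smallest adjusted p are given with the log2 fold change in Runx1 c-k/o cells minus that in Cre-only cells. For Itsn1 the difference was 1.62 ± 0.18 (SE, edgeR adjusted p = 0.00720), and the gene went from 26.5 to 21.0 CPM in Cre-only cells. Tsc22d1, a relative of Tsc22d3, differed by 1.24 ± 0.14 (SE, edgeR adjusted p = 0.00720), falling by 2.87 in Cre-only and by 1.62 in Runx1 c-k/o cells. Nr4a2 differed by 1.42 ± 0.17 (SE, edgeR adjusted p = 0.00814). Elk3, an ETS factor gene, differed by 0.997 ± 0.12 (SE, edgeR adjusted p = 0.00814), with falls of 1.82 and 0.83. Cd47, whose product signals to phagocytes, differed by 0.945 ± 0.12 (SE, edgeR adjusted p = 0.0116), with falls of 1.51 and 0.57. A pair of Runx1 c-k/o libraries stand apart from their groups, and without them the differences for Itsn1, Tsc22d1, Nr4a2, Elk3 and Cd47 were 1.71, 1.20, 1.37, 1.02 and 0.896, with edgeR adjusted p between 4.26e-06 and 0.000906. With the replicate number as a block, 4 genes passed in all, Tsc22d1 and Nr4a2 among them (edgeR adjusted p = 0.0439 for each), whereas Itsn1 (edgeR adjusted p = 0.0709), Elk3 and Cd47 (edgeR adjusted p = 0.260 for each) did not. The pairing by number was not checked in Runx1 c-k/o cells, where the libraries that stand apart carry different numbers.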

How the results depend on the processing

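The counts of genes higher, lower, and at least 2-fold higher or lower stayed within 1.5 times under all 15 alternatives chosen at the start, with 4141 to 5435 genes higher and 3993 to 6003 lower. Of 255 named genes that passed, 232 passed in the same direction under every alternative that gave an adjusted p, 23 lost the call or turned under at least 1, and DESeq2 gave no adjusted p for 6. Lost calls were Egr3, Irf4, Ciita, H2-Eb1 and Nfkbia under other scalings or a stricter filter, Prdm1, Ifi35, Ighg1, Mx1, H2-Aa, Malat1, Bach2, Mki67, Hspa1a, Hspa1b, Pcna and Runx3 with the RUVs factor, Ebf1, Cd69, Cd74 and mt-Co2 with the block, and Itsn1, Mcl1 and some of these with 1 sample left out. The RUVs factor turned 6 of the genes that passed, which gave 0.10 for Ebf1, -0.050 for Nfkbia, -0.16 for H2-Eb1, 0.38 for Malat1, 0.051 for Bach2 and 0.031 for Mki67, and Eef1a1, which did not pass, was at -0.35. Eef1a1 was also at -0.0011 with library totals, -0.14 with upper quartiles and -0.036 with at least 10 counts in every sample. Fcer2a, which did not pass, was at -0.059 with DESeq2 size factors and in DESeq2, -0.099 with library totals, -0.24 with upper quartiles, -0.0071 with no filter, -0.13 with at least 10 counts in every sample, -0.044 with the Cre-only samples alone and -0.021 without the 2 Runx1 c-k/o libraries that stand apart. Of 6 named genes that did not pass, Rel, Il4ra, Egr1 and mt-Co3 gained a call under at least 1 alternative. The interaction count of 11 became 79 in DESeq2, 134 with the RUVs factor, 4 with the replicate block, 4 to 9 with 1 sample left out and, in a fit chosen after seeing the data, 187 without those 2 libraries. With the pairing as a block 4978 genes were higher and 4758 lower, and the block changed no other count over all genes by more than 1.5 times. Among the lists it left 3 cytosolic ribosomal protein genes that rose and 3 mitochondrial mRNAs that fell, against 5 of each. The cause of these changes was not tested. At this depth a gene under 3 counts in a library could not be told from 0.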
